A study of Mus musculus with 10 samples.

Results

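The genes described here are 7 mouse genes of zinc handling, Mtf1, Mt1, Mt2, Slc39a6, Slc39a10, Slc30a1 and Slc30a9, measured in mature oocytes arrested at metaphase II, where the egg is ready to be fertilised. They were taken by symbol out of 35501 genes after the deposited transcript values had been summed per gene, and all 7 were found. The set was selected on values of the same comparison, above all on the TPM of Mtf1, for which TubA and control libraries do not overlap, so the values of the 7 genes are given as a description, and no test of them is read. TubA was given to 5 of the oocytes, at 0.1 µg/mL over 16 h, and the other 5 were controls. The oocytes of both groups were collected at the germinal vesicle stage from ovaries of ICR mice aged 6 to 8 weeks and matured in culture for 16 h at 37 °C in 5% CO2. The labels do not spell TubA out, and do not say whether the control oocytes received the solvent. The abbreviation is commonly used for tubastatin A, which inhibits the deacetylase HDAC6. The comparison asks what the transcriptome of a maturing oocyte looks like under this agent.

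Zinc enters the cytosol of a cell through transporters of the ZIP family (Slc39a genes) and leaves it, outward or into organelles, through those of the ZnT family (Slc30a genes). Metallothioneins are small cysteine-rich proteins that bind zinc, and MTF1 is a transcription factor that senses free zinc and binds metal response elements in the promoters of metallothionein genes and of Slc30a1. A mouse oocyte takes up zinc while it matures, needs it to hold the arrest at metaphase II, and releases part of it when it is activated. The products of Slc39a6 and Slc39a10 have been described as importers of the maturing mouse oocyte.

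Each library came from a single oocyte amplified with Smart-seq2, a protocol that copies whole polyadenylated transcripts. The labels name no animal or culture, so n counts oocyte libraries and any p-value measures only the spread between them, which may be technical. Levels are in TPM, a share of all transcripts corrected for transcript length, so the levels of different genes can be set side by side. TPM carries no depth, and the depth of each library is unknown. Between 10521 and 11698 genes per library reached 1 TPM. Markers of the labelled cell type were high in sum in every library. The 12 oocyte markers summed to 28440 to 46950 TPM in TubA libraries and 27810 to 42630 TPM in control libraries. They were led by the oocyte linker histone gene H1foo at 13730 ± 1965 and 14870 ± 2606 TPM (SD, n = 5 each). Some single markers varied more than the sum. In control replicate 1, Zp1 and Zp2 were at 104.8 and 93.1 TPM, against 1369 to 2552 and 1482 to 3256 TPM in the other control libraries. They were also low in TubA replicate 2, at 128.7 and 206 TPM. Control replicate 1 was also the lowest of all libraries in Zp3, Gdf9, Bmp15, Nlrp5 and Npm2, at 406, 4708, 1470, 456.6 and 828.7 TPM. It was not the lowest in Mos, Ooep, Zar1 or Dppa3. This library had the fewest genes at 1 TPM, 10521, but the highest H1foo level, 17050 TPM. The 12 markers of cumulus and granulosa cells, which surround the oocyte in the ovary, summed to 10.4 to 19.95 TPM in TubA libraries and 9.01 to 15.6 TPM in control libraries. Most of that was Cyp19a1, and Amh and Foxl2 were listed at 0 in every library. The 8 markers of theca and stroma, led by Dcn, summed to 5.77 to 14.7 and 4.84 to 21.1 TPM, and the 8 of blood, immune and endothelial cells, led by Pecam1, to 24.9 to 41.2 and 26.2 to 60.2 TPM in TubA and control libraries.

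The promoters of the metallothionein genes and of Slc30a1 are shown because they carry the short sequence that MTF1 binds, while the levels of these genes in the oocyte lay among the lowest of the set. The core of the metal response element, searched on both strands as TGCACNC or TGCGCNC, is in capitals. Each sequence is the 250 bases before the start of the gene in RefSeq on build GRCm38.p6, plus strand, and the windows lie at chr8:94172368-94172617 for Mt2, chr8:94178839-94179088 for Mt1 and chr1:191906531-191906780 for Slc30a1.
Mt2: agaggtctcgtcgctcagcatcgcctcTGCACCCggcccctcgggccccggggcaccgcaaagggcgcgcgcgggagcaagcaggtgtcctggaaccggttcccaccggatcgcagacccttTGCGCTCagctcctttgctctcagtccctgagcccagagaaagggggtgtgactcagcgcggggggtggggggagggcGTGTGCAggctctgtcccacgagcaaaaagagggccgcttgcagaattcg
Mt1: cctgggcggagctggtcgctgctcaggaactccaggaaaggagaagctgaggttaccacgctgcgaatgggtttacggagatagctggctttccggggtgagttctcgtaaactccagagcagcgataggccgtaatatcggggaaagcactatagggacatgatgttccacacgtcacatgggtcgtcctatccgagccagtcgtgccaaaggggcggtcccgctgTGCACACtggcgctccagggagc
Slc30a1: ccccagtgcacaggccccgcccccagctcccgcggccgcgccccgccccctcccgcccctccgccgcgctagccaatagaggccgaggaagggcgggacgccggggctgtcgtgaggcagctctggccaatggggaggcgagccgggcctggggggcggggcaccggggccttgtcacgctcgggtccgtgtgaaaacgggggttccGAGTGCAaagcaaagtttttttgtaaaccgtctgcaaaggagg
The Mt2 window held 3 cores, at 223, 128 and 50 bases before the start, the last of them on the opposite strand. As many were found in 1.26% of 32851 promoter windows of the same length. The windows of Mt1 and Slc30a1 held 1 core each, at 23 bases before the start in Mt1 and, on the opposite strand, at 43 bases before it in Slc30a1, and 21.4% of all windows held at least 1. TGCACNC occurred in 10.4% of windows and TGCGCNC in 12.5%. No core was found in the windows of Mtf1, Slc30a9 and Slc39a10, which has 2 windows. In all, 6 of the 7 genes matched the RefSeq table, and Slc39a6 was not among them. The window of Mt1 precedes its farthest upstream start in RefSeq. The windows of Mt1 and Slc30a1 run a few bases into the genes as annotated for the levels, which start at 94179082 and 191906767. Other annotated transcripts, Mt1-202, Mt2-202 and Slc30a1-202, begin 159, 196 and 489 bases into their genes, so sequence close to such starts was not searched. A match describes letters in this window and is not a measured binding site.

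The importers Slc39a6 and Slc39a10 were the most abundant of the 7 genes, and the metallothioneins Mt1 and Mt2 the least. The order by mean over the 10 libraries was Slc39a6 at 290.0 TPM, Slc39a10 at 227 TPM, Slc30a9 at 158 TPM, Mtf1 at 29.7 TPM, Slc30a1 at 3.65 TPM, Mt1 at 0.354 TPM and Mt2 at 0.215 TPM. Among the 22278 genes above 0 in at least 1 library, Slc39a6 ranked 594, Slc39a10 ranked 767 and Slc30a9 ranked 1076 by mean level, against 14043 for Mt1 and 15213 for Mt2. Some neighbours in this order were not separated by more than their spread. Slc39a6 lay above Slc39a10 in 9 of 10 libraries by 0.38 ± 0.40 on the log2(TPM + 1) scale (mean difference ± SD), and Slc39a10 above Slc30a9 in 8 of 10 by 0.53 ± 0.73. Slc30a9 exceeded Mtf1 in 10 of 10 libraries by 2.34 ± 0.53, Mtf1 exceeded Slc30a1 in 10 of 10 by 2.76 ± 0.54, and Slc30a1 exceeded Mt1 in 9 of 10 by 1.79 ± 0.83. The order of the importers depended on the transcripts counted. Over protein-coding transcripts Slc39a10 averaged more than Slc39a6, 217 against 198 TPM, and was the higher in 7 libraries. The place of Slc30a9 depended on the transcripts counted too. Over protein-coding transcripts it still averaged more than Mtf1, 41.9 against 25.8 TPM. Over coding transcripts of at least 1000 bases it averaged 3.31 TPM, below Mtf1 at 6.965 TPM and Slc30a1 at 3.65 TPM. Mt1 and Mt2 were not separated by more than their spread either, with a mean difference of 0.15 ± 0.51. Mt1 was the higher in 5 libraries and Mt2 in TubA replicate 2 alone, and both were at 0 in the other 4.

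**Figure D1:**
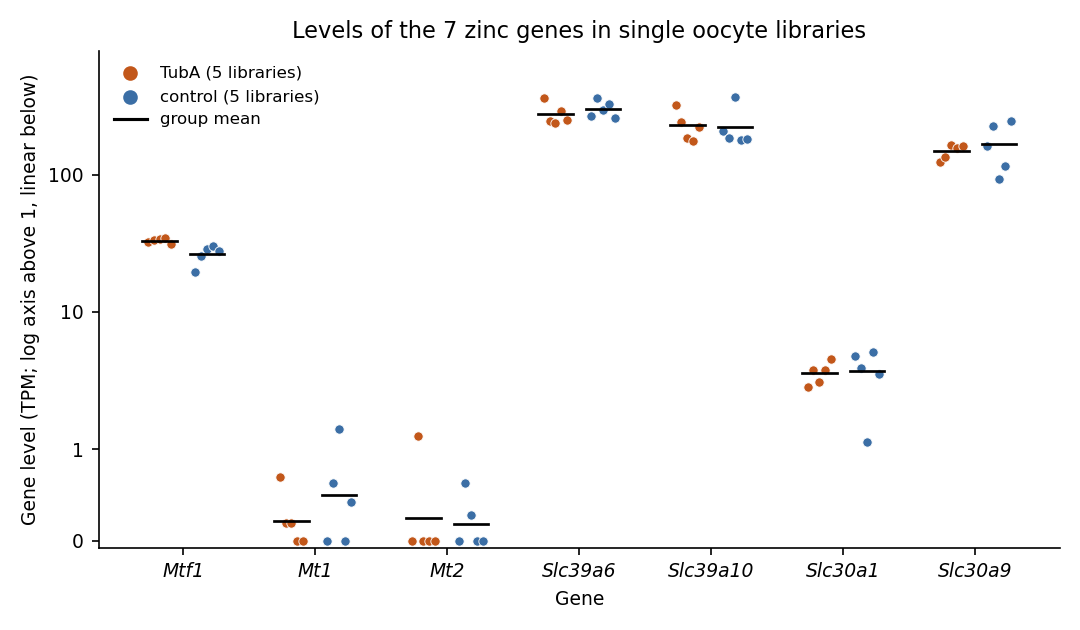
Gene level in TPM (vertical axis, logarithmic above 1 and linear below) of each of the 7 zinc genes in 5 TubA and 5 control oocyte libraries, with a point per library and a bar at the group mean. Slc39a6, Slc39a10 and Slc30a9 lie between 92.4 and 366 TPM, Mt1 and Mt2 at or below 1.41 TPM, and the groups separate without overlap in Mtf1 alone.

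Mtf1, the zinc sensor (chr4:124802104-124849800, plus strand, GRCm38), was the gene of the set whose groups did not overlap. It was at 32.3, 33.1, 33.7, 34.7 and 31.01 TPM in TubA libraries 1 to 5, against 19.4, 25.4, 28.8, 30.3 and 28.0 TPM in control libraries 1 to 5. The lowest TubA library thus lay just above the highest control library, and the control libraries were the more spread, with control replicate 1 well below the rest. The means were 33.0 ± 1.39 TPM under TubA and 26.4 ± 4.28 TPM in controls (SD, n = 5 each), a difference of 0.33 on the log2(TPM + 1) scale (SE 0.19). With single libraries left out, the difference lay between 0.22, without control replicate 1, and 0.38, without control replicate 4. Of the 11664 genes tested, 22 (0.189%) lay higher in every TubA library than in every control library and 31 (0.266%) lower. Among the 5 zinc genes that passed the filter of a mean of 1 TPM these counts were 1 and 0, and since this separation led to the choice of Mtf1 nothing is read from them.

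The separation of Mtf1 sat in a short transcript from the 5′ end of the gene. Mtf1-205 (750 nt, 2 exons, annotated as protein-coding) begins 574 bases into the gene and ends 2636 bases into it. It was at 14.2, 15.8, 16.0, 14.6 and 13.4 TPM in TubA libraries 1 to 5, against 6.76, 9.46, 10.3, 9.52 and 9.01 TPM in control libraries 1 to 5. Every TubA library stood clear of every control library. The means were 14.8 ± 1.10 TPM under TubA and 9.02 ± 1.35 TPM in controls, and the transcript made up 44.8 ± 2.55% of the Mtf1 level in TubA libraries and 34.3 ± 2.44% in control libraries. Being part of the gene sum that chose Mtf1, it is described without a test.

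The full-length coding transcript of Mtf1 showed no such separation. Mtf1-202 (7554 nt, 12 exons) was at 2.95, 8.49, 9.12, 6.86 and 7.25 TPM in TubA libraries 1 to 5, against 7.37, 7.04, 6.46, 5.76 and 7.45 TPM in control libraries 1 to 5. The groups overlapped, with TubA replicate 1 the lowest and TubA replicate 3 the highest of all 10 libraries. The means were 6.94 ± 2.41 TPM under TubA and 6.82 ± 0.707 TPM in controls. The other long transcript, Mtf1-201, was listed at 0 in 7 of 10 libraries and reached 0.674 TPM at most. Summed over protein-coding transcripts of at least 1000 bases, Mtf1 was at 6.94 ± 2.41 TPM under TubA and 6.99 ± 0.825 TPM in controls, a difference of -0.08 on the log2(TPM + 1) scale. The short transcript Mtf1-203 averaged 7.85 ± 2.07 TPM under TubA and 6.06 ± 2.14 TPM in controls, and Mtf1-204, annotated as a retained intron, averaged 3.41 ± 1.12 and 4.32 ± 2.86 TPM in TubA and control oocytes.

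How well these transcripts can be told apart differs. The long exon of Mtf1-205 lies wholly where the full-length transcripts have an intron, and only the end of that exon recurs, in Mtf1-203. In Mtf1-205, 84.0% of the words of 31 bases occur in no other transcript of the gene. In Mtf1-202 that share is 4.57% and in Mtf1-203 it is 4.29%, so the division of reads between those rests on few bases. The 3′ end of Mtf1 overlaps the gene 1110065P20Rik on the opposite strand, which touches the long transcripts and not Mtf1-205, and the labels do not say that strand was kept.

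**Figure D2:**
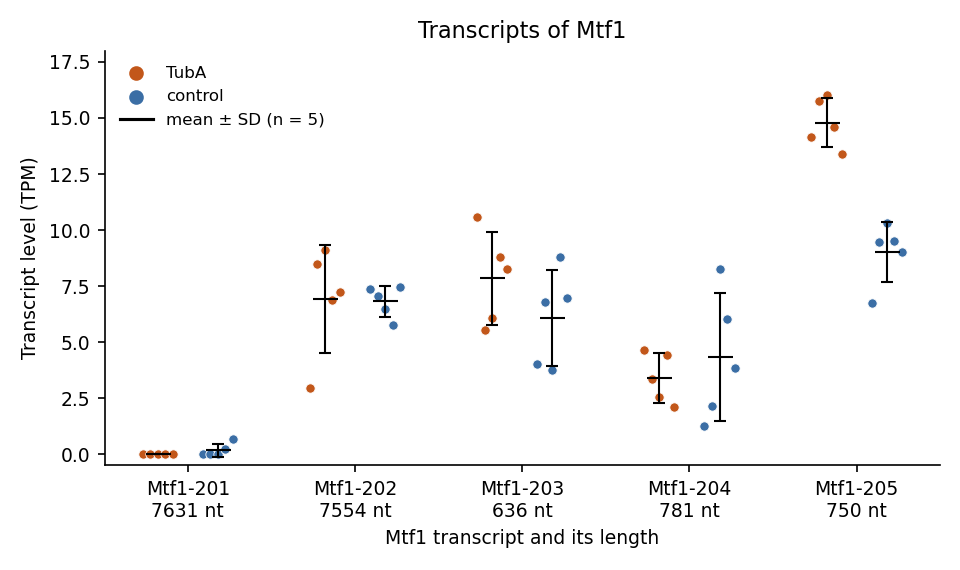
Level in TPM (vertical axis) of each annotated Mtf1 transcript in 5 TubA and 5 control libraries, with a point per library and the mean ± SD. Mtf1-205 is the transcript whose groups are apart, with TubA libraries between 13.4 and 16.0 TPM and control libraries between 6.76 and 10.3 TPM, while Mtf1-202 overlaps between groups.

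**Figure D3:**
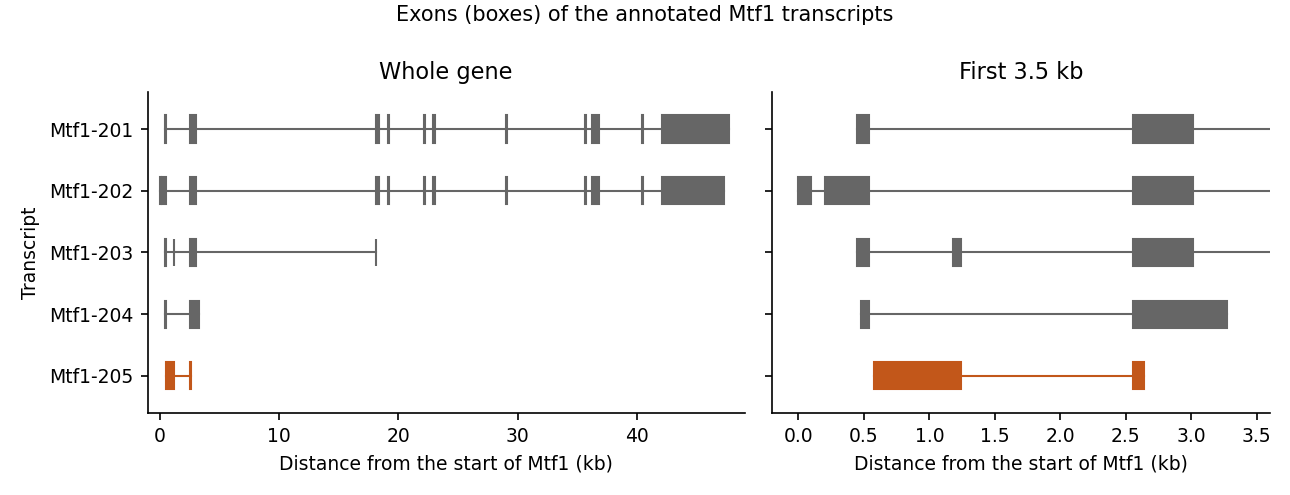
Exons (boxes) and introns (lines) of the 5 annotated Mtf1 transcripts by distance in kb from the start of the gene, over the whole gene on the left and over its beginning on the right, with Mtf1-205 in colour. The long exon of Mtf1-205 starts 574 bases into the gene, beyond the opening exons of Mtf1-201 and Mtf1-202.

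Across the 28 annotated transcripts of the 7 genes, 14 had a mean of at least 1 TPM, and Mtf1-205 was the sole one of these without overlap between the groups. Of all 21838 transcripts at such a mean, 51 (0.234%) lay higher in every TubA library than in every control library and 51 (0.234%) lower. Since Mtf1-205 is part of the gene sum that chose Mtf1, nothing is read from its count beside these shares.

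The genes with the highest Pearson correlation with Mtf1 across the 10 libraries were Lzic, Ccdc124 and Ska3, which encodes a protein of the outer kinetochore. Their Pearson correlations with Mtf1 on log2(TPM + 1) were 0.93, 0.92 and 0.92, and the Spearman correlations were 0.71, 0.78 and 0.70. The search covered 6210 genes averaging 10 TPM or more, and these Pearson values were its highest with predicted loci and pseudogenes left out. Lzic averaged 45.9 ± 7.03 TPM in TubA libraries and 32.0 ± 12.6 TPM in control libraries, with its lowest value, 15.1 TPM, in control replicate 1, where Mtf1 was lowest too. Ccdc124 and Ska3 also had their lowest values, 10.7 and 6.22 TPM, in that library. These coefficients were picked as the highest of many and share the difference between the groups and that library, so they carry no p-value. The values of Mtf1 fall into separate ranges in the groups, so no relation between these genes is read from the coefficients.

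The metallothioneins Mt1 and Mt2, which bind zinc in most mouse tissues, were at or close to 0 in every oocyte. Mt1 (chr8:94179082-94180327, plus strand) was listed at 0.695, 0.190, 0.195, 0 and 0 TPM in TubA libraries 1 to 5, against 0, 0.631, 1.41, 0 and 0.422 TPM in control libraries 1 to 5. Mt2 (chr8:94172664-94173568, plus strand) was listed at 1.24 TPM in TubA replicate 2 and at 0 in the other 4 TubA libraries, against 0.627 TPM in control replicate 2, 0.282 TPM in control replicate 3 and 0 in the other 3 control libraries. No library of either group reached 2 TPM with both genes added, the highest sum being 1.43 TPM among TubA libraries and 1.69 TPM among control libraries. Both genes failed the filter of a mean of 1 TPM, so no difference between the groups is given. In a program that divides reads by estimation, an exact 0 can be a failed estimate, and the values are reported as listed.

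Mt1 and Mt2 are neighbours on chromosome 8. Both were above 0 in the same library in 3 of 10 libraries. Their Pearson correlation on log2(TPM + 1) was 0.26 (two-sided permutation p = 0.45) and the Spearman correlation 0.42 (two-sided permutation p = 0.23), with no adjustment because a single pair was computed. Without control replicate 3 and TubA replicate 1, the libraries farthest from the median of Mt1, Pearson's r was 0.45. Mt1 was listed at 0 in 4 libraries and Mt2 in 7, and the other values were close to 0. These coefficients therefore cannot tell whether the genes vary together, and nothing is read from them. No correlation of Mtf1 with Mt1, Mt2 or Slc30a1 is given, because the values of Mtf1 fall into separate ranges in the 2 groups. Of the other metallothioneins, Mt4, known from stratified squamous epithelium, was the one listed above 0 throughout. It was at 52.3, 24.6, 27.2, 4.55 and 15.4 TPM in TubA libraries 1 to 5, against 18.4, 16.1, 10.1, 12.2 and 15.1 TPM in control libraries 1 to 5. Both the highest and the lowest of these values came from TubA libraries. The difference of Mt4 was 0.43 on the log2(TPM + 1) scale (SE 0.49), with an adjusted p of 0.9999 in limma. Mt3, known from brain, averaged 0.300 ± 0.414 TPM under TubA and 1.11 ± 1.05 TPM in controls.

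The importers Slc39a6 and Slc39a10 made up nearly all of the ZIP family transcripts of the oocyte. Of the 14 ZIP genes, they held 93.0 ± 1.86% of the summed TPM in TubA libraries and 93.1 ± 1.45% in control libraries, and they took the 2 highest places in 10 of 10 libraries. The next gene, Slc39a9, averaged 19.3 ± 7.59 TPM over all libraries (SD, n = 10). Together, Slc39a6 and Slc39a10 made up 72.8 ± 5.08% of the summed level of the 7 zinc genes in TubA libraries and 72.5 ± 8.68% in control libraries.

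Slc39a6 (chr18:24579881-24603817, minus strand) was at 363.5, 244, 239.9, 293 and 249 TPM in TubA libraries 1 to 5, against 268, 361, 295, 329 and 258 TPM in control libraries 1 to 5. The ranges overlapped almost entirely, with TubA replicate 1 the highest of all. The means were 278 ± 52.3 TPM under TubA and 302 ± 43.1 TPM in controls, a difference of -0.13 on the log2(TPM + 1) scale (SE 0.17), which was -0.23 without TubA replicate 1 and -0.06 without control replicate 2. The spliced coding transcript Slc39a6-201 averaged 193 ± 49.3 TPM under TubA and 201 ± 42.0 TPM in controls. A retained-intron transcript of 529 nt, Slc39a6-202, accounted for 30.9 ± 7.74% of the gene level in TubA libraries and 32.8 ± 14.1% in control libraries. Only 1.002% of its words of 31 bases are its own, and the gene overlaps Elp2 on the opposite strand, so this split is uncertain.

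Slc39a10 (chr1:46807544-46892852, minus strand) was at 320.2, 242, 186, 177 and 222 TPM in TubA libraries 1 to 5, against 208, 184, 366, 180.1 and 182 TPM in control libraries 1 to 5. A single library of each group, TubA replicate 1 and control replicate 3, stood above the others. The means were 229 ± 57.3 TPM under TubA and 224 ± 80.2 TPM in controls, and the difference of 0.06 on the log2(TPM + 1) scale (SE 0.24) turned to -0.07 without TubA replicate 1 and to -0.0034 without control replicate 4, and was 0.25 without control replicate 3. The same libraries carried nearly all of the retained-intron transcript Slc39a10-202. It was at 29.0 TPM in TubA replicate 1 and 57.4 TPM in control replicate 3, and between 0.276 and 3.52 TPM in the other 8 libraries. These libraries also had the highest share of TPM in retained-intron transcripts over all genes, 4.66% in TubA replicate 1 and 4.61% in control replicate 3. That share differed little between libraries, with a lowest of 4.36% in TubA replicate 2. Control replicate 5 came next at 4.58%, with Slc39a10-202 at 1.455 TPM. Whether the share has any part in the level of Slc39a10-202 was not tested. The coding transcript Slc39a10-201 held 92.0 ± 6.52% of the gene level in TubA libraries and 92.4 ± 5.86% in control libraries, and it too was highest in control replicate 3, at 300.5 TPM.

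Of the exporters, Slc30a1, which carries zinc out across the plasma membrane, was low in every oocyte. Slc30a1 (chr1:191906767-191913247, plus strand) was at 2.85, 3.78, 3.06, 3.796 and 4.53 TPM in TubA libraries 1 to 5, against 4.76, 3.91, 1.12, 5.10 and 3.55 TPM in control libraries 1 to 5. All TubA libraries lay within the control range, and control replicate 3 was the lowest. The means were 3.603 ± 0.669 TPM under TubA and 3.69 ± 1.57 TPM in controls, so that the TubA mean was the lower in TPM, while the mean difference on the log2(TPM + 1) scale was 0.05 (SE 0.32), of the opposite sign. That difference became -0.21 without control replicate 3 and -0.02 without TubA replicate 5. Slc30a1-201, of 5244 nt, accounted for the whole of it.

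Slc30a9, a member of the ZnT family linked to zinc export from mitochondria, was at 124, 135.5, 166, 155 and 161 TPM in TubA libraries 1 to 5, against 161, 225, 92.4, 116 and 245 TPM in control libraries 1 to 5 (chr5:67306955-67358443, plus strand). All TubA libraries lay inside the wider control range. The means were 148 ± 17.8 TPM under TubA and 168 ± 66.4 TPM in controls. The difference was -0.09 on the log2(TPM + 1) scale (SE 0.26), -0.28 without control replicate 3, 0.04 without control replicate 2 and 0.07 without control replicate 5.

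Most of the Slc30a9 level came from short transcripts. Slc30a9-202, a transcript of 383 nt annotated as not coding, averaged 97.9 ± 18.0 TPM under TubA and 125 ± 55.8 TPM in controls, or 65.5 ± 5.07% and 72.9 ± 5.69% of the gene level in TubA and control oocytes. Slc30a9-208, a coding transcript of 425 nt from the inside of the gene, averaged 42.4 ± 1.70 TPM under TubA and 34.7 ± 10.6 TPM in controls. The full-length coding transcript Slc30a9-204, of 5711 nt, averaged 3.62 ± 1.57 TPM under TubA and 3.004 ± 0.349 TPM in controls, close to the level of Slc30a1. On the log2(TPM + 1) scale the difference of Slc30a9 was 0.32 over its protein-coding transcripts, against -0.09 over all of them. Since 0.581% of the words of 31 bases of Slc30a9-204 are its own, against 56.7% for Slc30a9-202, its level is the less certain of the pair.

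**Figure D4:**
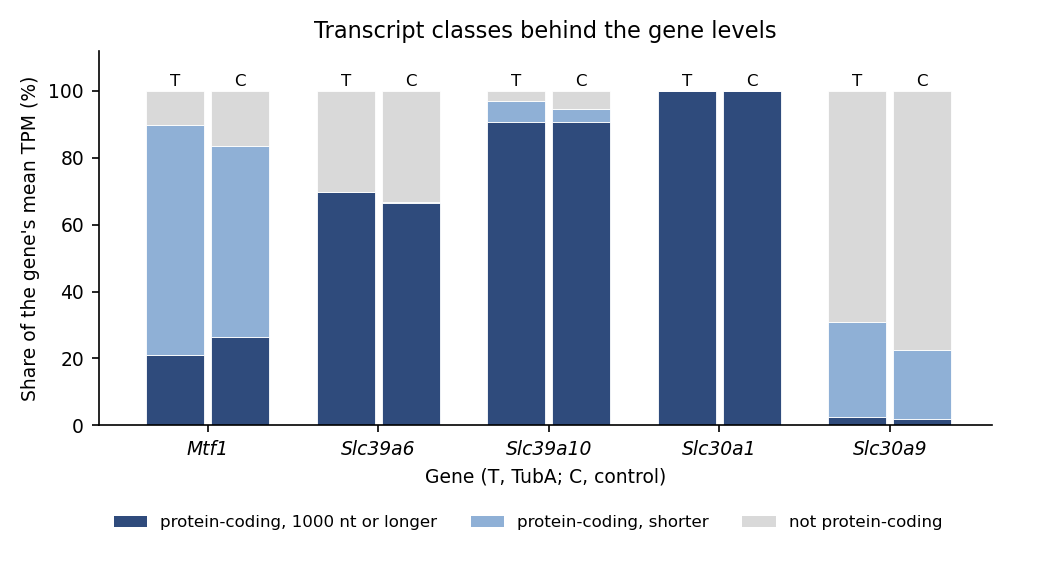
Share in percent (vertical axis) of the mean TPM of each gene that came from protein-coding transcripts of at least 1000 nt, from shorter protein-coding transcripts and from transcripts not annotated as coding, for TubA (T) and control (C) libraries. Long coding transcripts hold 100% of Slc30a1 and 90.8% of Slc39a10 in both groups, but 2.44% of Slc30a9 in TubA and 1.79% in control libraries.

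The place of Slc30a9 among the 10 ZnT genes depended on which transcripts were counted. With all transcripts it was the highest in 9 of 10 libraries, followed by Slc30a3, known for loading zinc into synaptic vesicles, at 100.2 ± 33.1 TPM, and Slc30a5, a transporter of the early secretory pathway, at 82.9 ± 20.7 TPM (SD, n = 10). With protein-coding transcripts alone, Slc30a9 averaged 41.9 ± 8.72 TPM and was the third in 10 of 10 libraries, behind Slc30a3 and Slc30a5. Slc30a4 averaged 7.93 ± 2.47 TPM, and Slc30a1 was the fifth by mean in both counts. In the ZIP family, with protein-coding transcripts alone, Slc39a10 averaged 217 ± 48.4 TPM and Slc39a6 198 ± 44.2 TPM, and both still took the 2 highest places in 10 of 10 libraries. Slc39a10 was then the highest in 7 libraries, against 1 with all transcripts, and Slc39a14 was at 0.122 TPM and 13 of 14 by mean, against the fourth place with all transcripts.

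**Figure D5:**
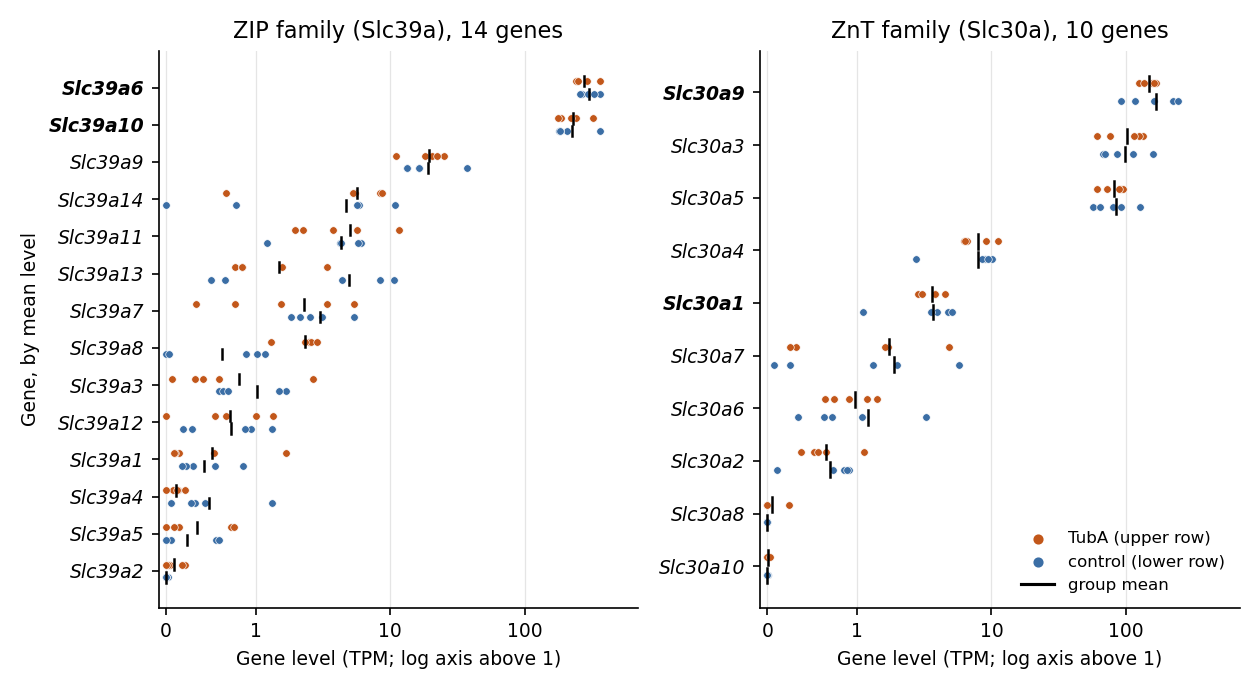
Gene level in TPM (horizontal axis, logarithmic above 1 and linear below) of the 14 ZIP genes on the left and the 10 ZnT genes on the right, ordered by mean level, with a point per library, TubA libraries in the upper row of each gene and control libraries in the lower row, a bar at each group mean, and the genes of the set in bold. Slc39a6 and Slc39a10 stand apart from the other ZIP genes, the next of which averages 19.3 TPM.

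In the test over all genes, TubA against control, 1 of 11664 genes (0.00857%) passed an adjusted p of 0.05 in limma, and 293 had an unadjusted p under 0.05. The fit held 5 of the 7 zinc genes, of which 0 lay past the threshold, and since they were selected on this comparison nothing is read from that count. Of their differences, 3 were positive and 2 negative, with a median of 0.05, beside 5991 positive and 5673 negative differences and a median of 0.01 over all genes tested. Of 44 other genes of zinc and metal handling in 6 lists, 29 were tested and 0 passed in limma, with 16 positive and 13 negative differences, a median of 0.06, a lowest adjusted p of 0.9999 and 2 genes, Slc39a8 and Csrp1, at an unadjusted p under 0.05.

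Among the 12 other ZIP genes, 6 were tested and none passed, with a median difference of 0.07, which was -0.14 without TubA replicate 1, -0.12 without control replicate 1 and 0.26 without TubA replicate 3. The most abundant were Slc39a9 at 19.4 ± 5.39 TPM under TubA and 19.3 ± 10.02 TPM in controls, Slc39a14, an importer that also carries iron, at 5.71 ± 3.23 and 4.67 ± 4.45 TPM in TubA and control oocytes (0.191 and 0.0538 TPM in its protein-coding transcripts), and Slc39a11 at 5.05 ± 3.95 and 4.34 ± 1.93 TPM in TubA and control oocytes. Slc39a8, an importer of zinc and manganese named here after its values were seen, had no overlap between groups. It was at 2.50, 2.58, 2.33, 2.86 and 1.31 TPM in TubA libraries 1 to 5, against 1.18, 0, 0.894, 1.02 and 0.0333 TPM in control libraries 1 to 5. The lowest TubA library was close to the highest control library, and all values were near the filter. Its difference of 1.09 on the log2(TPM + 1) scale (SE 0.32) did not pass, with an adjusted p of 0.9999 in limma. Of the 8 other ZnT genes, 5 were tested and none passed, with a median difference of 0.02 that was -0.06 without TubA replicate 2 and 0.14 without control replicate 3; Slc30a3, the most abundant, averaged 102.1 ± 32.0 TPM under TubA and 98.3 ± 37.9 TPM in controls, and Slc30a5 averaged 81.8 ± 14.7 and 84.0 ± 27.4 TPM in TubA and control oocytes.

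Of 6 further genes bound or controlled by MTF1 in mouse, 3 were tested and none passed, with a median difference of -0.31, which lay between -0.64, without TubA replicate 4, and -0.03, without control replicate 4, when single libraries were left out. Selenow, which encodes selenoprotein W, averaged 152.5 ± 103 TPM under TubA and 186 ± 109 TPM in controls. Csrp1, which encodes a LIM domain protein, was at 8.55, 8.61, 8.92, 17.3 and 9.35 TPM in TubA libraries 1 to 5, against 25.7, 22.1, 34.6, 23.9 and 6.52 TPM in control libraries 1 to 5. Control replicate 5 was the lowest of all, so the groups overlapped, and the difference of -0.91 on the log2(TPM + 1) scale (SE 0.39) had an adjusted p of 0.9999 in limma. Gclc, the catalytic subunit of the enzyme that begins glutathione synthesis, averaged 7.22 ± 2.35 TPM under TubA and 6.95 ± 2.44 TPM in controls.

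Of 4 genes of zinc entry and zinc-dependent arrest of the egg, 3 were tested and none passed, with a median difference of -0.24, which was -0.53 without TubA replicate 1 and -0.0059 without TubA replicate 3. Fbxo43, which encodes the zinc-binding inhibitor EMI2 that holds the egg at metaphase II, averaged 317.5 ± 38.0 TPM under TubA and 330.5 ± 79.5 TPM in controls. The channel genes Trpm7 and Cacna1h averaged 11.2 ± 7.27 and 6.32 ± 4.74 TPM under TubA, against 13.1 ± 5.84 and 8.12 ± 4.99 TPM in controls. Of 12 copper and iron genes, 11 were tested and none passed, with a median difference of 0.12, which was 0.04 without TubA replicate 1 and 0.23 without control replicate 4. The ferritin genes Ftl1 and Fth1 averaged 282 ± 90.5 and 48.8 ± 46.4 TPM under TubA, against 244 ± 133 and 49.1 ± 18.2 TPM in controls, and the copper transporter gene Slc31a2 averaged 80.2 ± 16.8 TPM under TubA and 73.0 ± 11.1 TPM in controls.

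The libraries also fall by correlation into 2 sets that cross the groups, one with TubA replicates 1 and 2 and control replicates 1, 2 and 3, the other with TubA replicates 3, 4 and 5 and control replicates 4 and 5. The sets were found from the same values and are no label of the submitters. The Mtf1 difference was 0.42 within the set of 2 TubA and 3 control libraries and 0.18 within the other, and 0.30 with the set as a term. Those of Slc39a6 (-0.04 and -0.17) and Slc30a9 (-0.20 and -0.07) were below 0 in both sets, that of Slc39a10 above 0 in both (0.21 and 0.10), and that of Slc30a1 had a different sign in each (0.13 and -0.15).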

How the data were processed

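The authors deposited TPM per Ensembl transcript for each oocyte; the unit was read from the values, whose total was 1000000 in every file. The genome build named is mm10 and Bowtie 0.12.2 is among the programs, per the submitters' processing notes; how abundances were estimated, and on which annotation, is not given in the sources used here. TPM keeps no depth, so no counting interval is given. Transcripts were summed to genes with GENCODE M21 of GRCm38, the assembly of mm10; 113492 of 115270 matched, and the 1778 others, 0.531% to 0.753% of TPM, were left out.

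TubA was compared with control by limma 3.58.1 (R 4.3.3) on log2(TPM + 1) over all 10 libraries, for genes averaging 1 TPM or more, with robust empirical Bayes moderation along an intensity trend and p-values adjusted after Benjamini-Hochberg (threshold 0.05). The pseudocount of 1 understates changes of low genes. The fit was also run on simulated data with independent noise for each gene and library. Those data lack the library sets found here, so no error rate or power is read from that run. Tables were made with Python 3.11.15, pandas 2.3.3, numpy 2.4.6 and scipy 1.17.1, and figures with matplotlib 3.10.9. Correlations used 100000 resamples; of 4 planned pairs, those with Mtf1 were not computed.

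The 7 genes and all lists were chosen with earlier results of these data known. All 7 are named, and of each other list every gene past the threshold or else the 3 most abundant, the 3 genes most like Mtf1, and of marker lists the most abundant and those at 0. Likeness to Mt1 is not given, since Mt1 failed the filter. A transcript's own words are runs of 31 bases found in no other transcript of its gene. Promoters come from RefSeq (GRCm38.p6). The alternatives were other pseudocounts, filters, scalings and weights, the replicate number as a block, each library left out, the library sets, and protein-coding transcripts alone; coding transcripts of at least 1000 bases were added after seeing the data.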

Additional observations from a re-analysis of the deposited data

Results flagged for a closer look

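Of 70 groups of 5 libraries examined for 35 genes and transcripts, 11 had a library far from the other 4 of its group. For independent values of a normal distribution, chance flags about 1 in 20 groups. TPM values with zeros, and genes listed beside their own transcripts, do not meet that condition, so nothing is read from the count. Control replicate 3 accounted for 6 of these, TubA replicates 1 and 4 for 2 each and TubA replicate 2 for 1. No explanation was tested.

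Slc39a10 was at 366 TPM in control replicate 3, with the other control libraries between 180.1 and 207.6 TPM, and its coding transcript Slc39a10-201 at 300.5 TPM there, with the others between 170.7 and 194.3 TPM. The retained-intron transcript Slc39a10-202 was at 29.0 TPM in TubA replicate 1, with the other TubA libraries between 0.276 and 3.52 TPM, and at 57.35 TPM in control replicate 3, with the other control libraries between 0.330 and 1.46 TPM. Mt1 stood out in TubA replicate 1 at 0.6953 TPM, with the other TubA libraries at or below 0.195 TPM, and Mt2 in TubA replicate 2 at 1.238 TPM, with the others at 0.

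Among the other metal genes, Slc39a9 was high in control replicate 3 at 36.99 TPM, with the other control libraries between 13.3 and 16.3 TPM. Slc30a4 and Gclc were low in that library, at 2.74 and 2.745 TPM, with the other control libraries between 8.50 and 10.1 TPM for Slc30a4 and between 6.90 and 8.47 TPM for Gclc. In TubA replicate 4, Csrp1 was at 17.31 TPM, with the other TubA libraries between 8.55 and 9.35 TPM, and Fth1 at 130.1 TPM, with the others between 16.9 and 38.2 TPM.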

How the results depend on the processing

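For all genes, limma passed 1 gene, and 0 with a pseudocount of 10 (288 genes at an unadjusted p under 0.05), 0 with a filter at 5 TPM (166) and 0 in library set B alone (199), against 12 in library set A alone (514); set A holds TubA replicates 1 and 2 and control replicates 1 to 3. Leaving out each library in turn passed 1 gene every time. With the replicate block, limma passed 0 genes (313 at an unadjusted p under 0.05). The replicate numbers were not taken as pairs, because the correlations of deviations between same-numbered libraries ran from -0.308 to 0.476. Of the other zinc and metal genes, 0 passed in limma under any of these settings, with 1 to 3 at an unadjusted p under 0.05. The medians of the other ZIP and of the copper and iron genes were -0.17 and -0.10 in library set B alone.

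The share of Slc39a6 and Slc39a10 in the summed TPM of the 7 genes, 72.64%, became 84.84% with protein-coding transcripts alone and, in a count chosen after seeing the data, 96.48% with coding transcripts of at least 1000 bases, since most of the Slc30a9 and Mtf1 levels come from shorter transcripts. With Mt1, Mt2 and a gene that shares sequence with Mt2, Pip5k1a, added together it was 72.44%. Over all transcripts, the differences of Mtf1 and Slc39a6 kept their sign under the other pseudocounts, filters, scalings, weights, block and library sets. They also kept it with each library left out, and that of Mtf1 lay between 0.18 and 0.42 throughout. For Mtf1 the selection fixed this sign wherever the scaling was unchanged, since every TubA library lay above every control library, so nothing is read from it. Over protein-coding transcripts alone the Mtf1 difference was 0.41. In the count chosen after seeing the data, coding transcripts of at least 1000 bases, it was -0.08. Slc39a10, Slc30a1 and Slc30a9 changed sign when single libraries were left out, and Slc30a1 also with a pseudocount of 10, with library weights and with the library sets. The difference of Slc39a8 was 2.37 with a pseudocount of 0.1 and 0.21 with a pseudocount of 10. Pearson's r of Mt1 with Mt2 lay between 0.168 and 0.594 under the alternatives. The unknown depth limits what can be said of Mt1, Mt2 and Slc30a1.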
